A study of Homo sapiens with 6 samples.

Results

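The genes examined here encode the enzymes that build fatty acids and triglycerides, together with 3 of their regulators, in Ishikawa, a cell line from a human endometrial cancer. They were taken by gene symbol from a fixed list of 41 genes, all of which were present in the deposited table of 58735 genes. By role the list holds 8 genes of fatty acid synthesis, 10 of elongation, 5 of desaturation, 4 of acyl-CoA activation, 11 of esterification and 3 regulators. The list was not chosen by a measured value, but it was drawn up with earlier results of these data known. RNA was sequenced 48 hours after lipofection. One group had received a negative control siRNA (siNC) and the other an siRNA against the transcription factor TCF19 (siTCF19), with 3 libraries in each. Both groups carried the same line, the same medium with serum and the same transfection reagent. The labels do not say how many siRNA sequences were used. They call the libraries triplicates without naming separate cultures, so the p-values rest on a spread between samples that may be only technical.

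Cells make palmitate from acetyl-CoA, which ACLY and ACSS2 supply, by way of malonyl-CoA from acetyl-CoA carboxylase and the multi-step enzyme fatty acid synthase. Elongases lengthen the chain, desaturases add double bonds, and acyl-CoA synthetases activate free fatty acids. Acyltransferases then attach acyl chains to glycerol phosphate, and the lipin phosphatases remove the phosphate. The DGAT enzymes add the last acyl chain to give triglyceride. Transcription of many of these genes is driven by SREBP1, the product of SREBF1, and by the glucose-responsive factor ChREBP, the product of MLXIPL.

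The libraries held 14680022 to 16244705 counts, and members made up 0.541% to 0.565% of each siNC library and 0.436% to 0.440% of each siTCF19 library. Counts of TCF19 ran from 2572 to 2905 in siNC and from 529 to 675 in siTCF19, and its level was 4.59-fold lower (95% interval 4.22 to 5.00, adjusted p = 6.15e-29). Epithelial markers were present, with EPCAM at 506 ± 4.35 CPM in siNC (SD, n = 3), where CPM is the count scaled to a common library size, and PAX8, a marker of the Müllerian epithelium, stood at 861 CPM. Neither of these passed the test, but KRT8 and KRT18 fell (log2 fold changes -0.40 and -0.43), and KRT19, CDH1 and SOX17 rose (0.44, 0.61 and 0.55). The endometrial markers ESR1 and PGR had 0 to 4 counts in every library and FOXA2 had none, whereas 3 counts correspond to 0.190 to 0.206 CPM. Of 5 adipocyte markers, ADIPOQ and CIDEC had no count in any library and FABP4 had 0 to 2, while LEP had 9 to 17 and PLIN1 19 to 45 counts in each, and neither of these passed the test. Markers of other cell types moved both ways. Of the stromal ones, COL1A2 fell from 161 to 101 CPM and COL1A1 rose from 17.9 to 26.7 CPM, whereas DCN had no count. Of the endothelial ones, VWF rose from 5.13 to 15.5 CPM and CDH5 fell from 0.978 to 0.259 CPM. The part of these markers in the results was not tested. These are bulk libraries, so fewer cells with a transcript and less of it per cell cannot be told apart.

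Of the 41 genes, 40 had enough counts to be tested, and 27 of them (67.5%) changed at an adjusted p under 0.05: 11 were higher and 16 lower in siTCF19. The same test called 41.5% of all 17299 genes tested, 20.7% higher and 20.8% lower. Most members are well expressed, and among the 12067 genes that averaged 5 CPM or more in a group the shares called were 25.7% higher and 27.1% lower, 52.8% in all. Of the 38 members at that level, 10 were higher and 16 lower (68.4%). The median log2 fold change of the 40 was -0.04, with 0.00 over all genes. Changes of at least 1.4-fold that passed the test were found for 7 members in the lower direction (7.25% of all genes) and 4 in the higher (8.23%). Levels of the 2 groups of libraries did not overlap for 30 members, and they did not overlap for 49.2% of all tested genes. Among genes that averaged 5 CPM or more, they did not overlap for 73.7% of members and 59.2% of all genes. Without composition scaling, on library size alone, 15 members were higher and 16 lower, and the share of higher calls over all genes went from 49.9% to 61.4%.

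**Figure D1:**
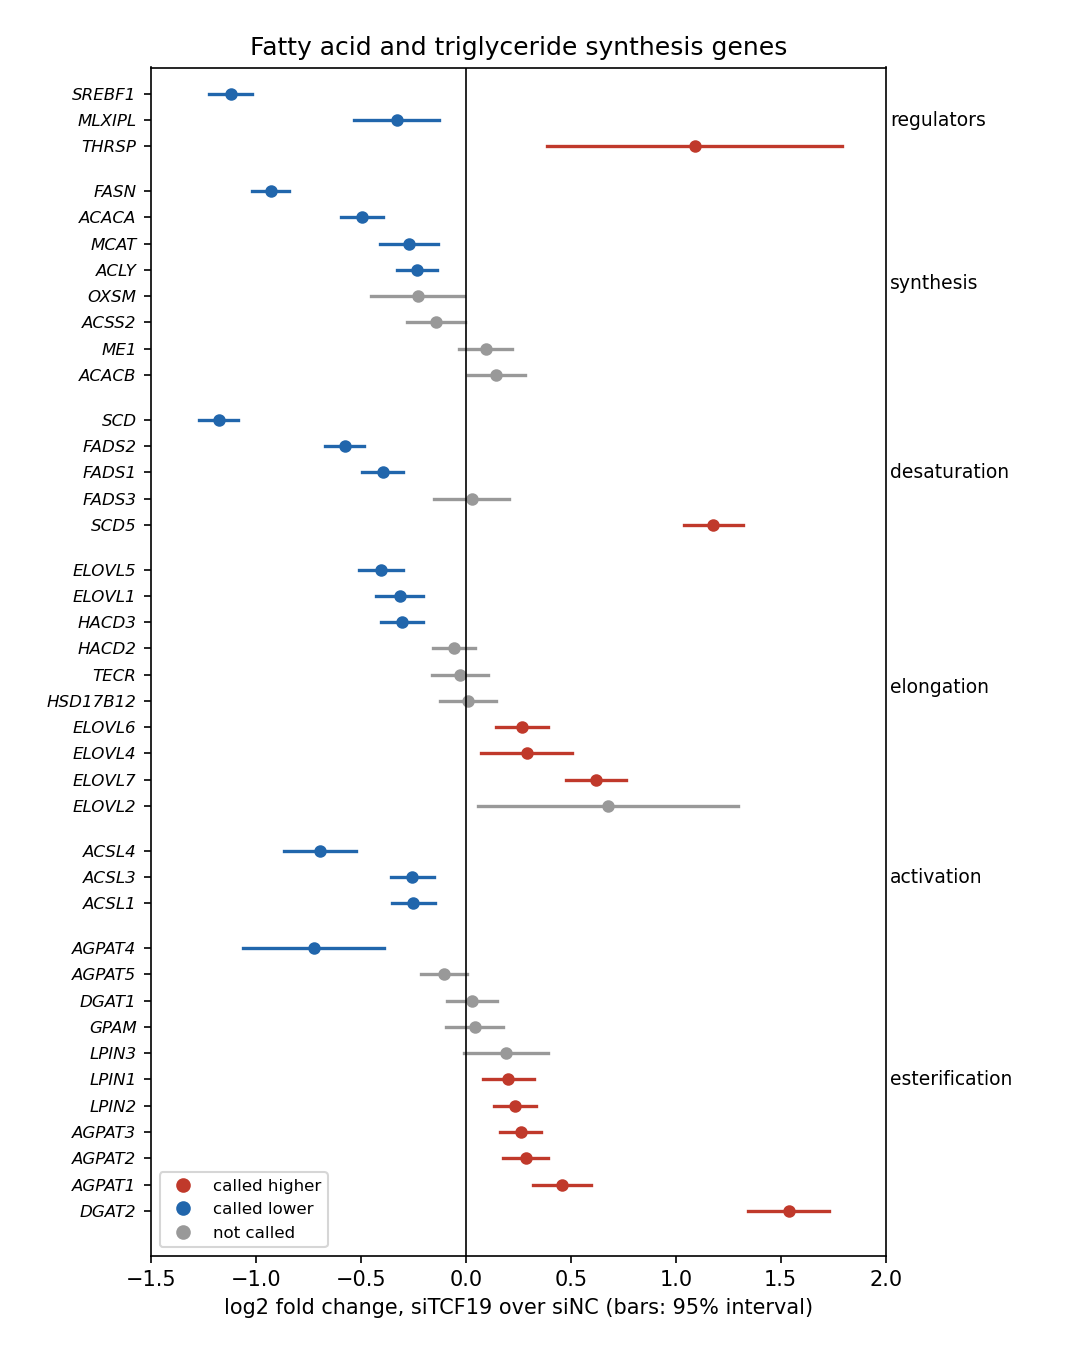
Log2 fold change of siTCF19 over siNC (horizontal axis) for each of the 40 tested genes, grouped by role. Points are estimates, bars are 95% intervals, red genes were called higher, blue genes lower and grey genes were not called. SCD at -1.18 and DGAT2 at 1.54 mark the ends of the range.

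By role, and beside the 20.7% higher and 20.8% lower over all genes, the 8 synthesis genes included 4 that fell and 0 called higher, and all 3 tested activation genes fell. The 5 desaturation genes included 3 that fell and 1 that rose, and the 10 elongation genes 3 of each. The 11 esterification genes included 6 that rose and 1 that fell, and among the regulators 2 fell and 1 rose. With edgeR's test at an unadjusted p under 0.05, 1 synthesis gene was higher and 6 lower, and 0 activation genes were higher. DESeq2 and limma-voom also called 0 synthesis and 0 activation genes higher at an adjusted p under 0.05, whereas library-size-only scaling called 2 synthesis genes higher, and leaving out replicate 3 of siTCF19 gave 1. The median log2 fold change was -0.23 in synthesis, -0.01 in elongation, -0.40 in desaturation, -0.26 in activation and 0.20 in esterification. Whether the roles differ from one another was not tested.

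The largest falls were those of a regulator and of the enzymes for saturated and monounsaturated chains. SREBF1 encodes SREBP1, a membrane-bound factor released by cleavage to switch on lipid synthesis genes, and lies at chr17:17810399-17837002 on the minus strand of hg38. It stood at 278, 294 and 278 CPM in the siNC libraries and at 134, 121 and 135 CPM in the siTCF19 libraries. All siTCF19 libraries were below all siNC libraries. The mean went from 283 ± 9.13 to 130 ± 8.02 CPM (SD, n = 3), a 2.17-fold fall (95% interval 2.03 to 2.33, log2 fold change -1.12 ± 0.05 SE, adjusted p = 8.58e-22). Of all tested genes, 1.78% had a lower log2 fold change. Of the exonic bases of SREBF1, 6.92% are shared with RAI1 on the opposite strand, and no source used here states whether the counting used strand.

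MLXIPL, which encodes ChREBP, stood at 23.5, 20.9 and 19.3 CPM in siNC and at 17.5, 18.0 and 15.2 CPM in siTCF19. The groups did not overlap, and the log2 fold change was -0.33 ± 0.10 (adjusted p = 0.00694). Without replicate 1 of siNC the adjusted p of MLXIPL was 0.0794, and without replicate 3 of siTCF19 it was 0.0642. THRSP, a small nuclear protein tied to lipogenic transcription, rested on few counts: 6, 19 and 22 in siNC and 27, 28 and 46 in siTCF19. Its estimate was 1.09 on the log2 scale with a 95% interval from 0.39 to 1.79 (adjusted p = 0.0103), and the first siNC library was the lowest. Without that library the log2 fold change of THRSP was 0.73 with an adjusted p of 0.0918, and without replicate 3 of siTCF19 it was 0.81 with 0.112.

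FASN, the fatty acid synthase that makes palmitate, is at chr17:82078333-82098332 on the minus strand. Its level was 1340, 1504 and 1387 CPM in siNC and 749, 727 and 743 CPM in siTCF19, so that every siTCF19 library was far below the lowest siNC library. The mean fell 1.91-fold (95% interval 1.80 to 2.03), from 1410 ± 84.4 to 739 ± 11.6 CPM (log2 fold change -0.93 ± 0.04, adjusted p = 2.24e-21). FASN was the most abundant member per length, at 149 FPKM in siNC, above 98.9% of tested genes, and at 78.2 FPKM in siTCF19. FPKM are fragments scaled by library size and by gene length, which here counts every annotated exonic base of the gene. That length can exceed the length of the transcripts present, so FPKM compared between genes depend on the annotation.

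Of the 2 acetyl-CoA carboxylases, only ACACA passed the test, and the difference between them was not tested. ACACA, the cytosolic form that feeds malonyl-CoA to FASN, was at 324, 357 and 336 CPM in siNC and at 241, 255 and 226 CPM in siTCF19, without overlap. It fell 1.41-fold (95% interval 1.32 to 1.51, log2 fold change -0.49 ± 0.05, adjusted p = 3.09e-11). ACACB, the mitochondrial form whose malonyl-CoA restrains fatty acid import into mitochondria, had 42.7 ± 1.01 CPM in siNC and 47.2 ± 1.56 CPM in siTCF19. The groups of ACACB did not overlap, but its log2 fold change of 0.14 (0.01 to 0.28) did not pass the test (adjusted p = 0.0827). The ratio of ACACA to ACACB in FPKM was 8.69, 9.14 and 8.71 in siNC and 5.77, 5.80 and 5.47 in siTCF19.

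Among the suppliers of acetyl-CoA, ACLY, which splits citrate in the cytosol, fell 1.18-fold from 403 ± 25.3 to 343 ± 9.50 CPM (adjusted p = 6.83e-05). For ACSS2, which makes acetyl-CoA from acetate, the log2 fold change was -0.14 (-0.28 to -0.0034, adjusted p = 0.0954). For ME1, the malic enzyme that supplies NADPH, it was 0.09 (-0.03 to 0.22, adjusted p = 0.234). Neither of these passed the test. In the separate mitochondrial pathway, the malonyl transferase MCAT fell from 48.9 ± 1.80 to 40.6 ± 0.95 CPM (log2 fold change -0.27 ± 0.07, adjusted p = 0.00116). OXSM, the ketoacyl synthase of that pathway, was at -0.23 on the log2 scale (-0.45 to -0.01, adjusted p = 0.0905) and shares 21.6% of its exonic bases with NGLY1.

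The 2 stearoyl-CoA desaturases moved in opposite directions. SCD, the main stearoyl-CoA desaturase, which makes oleate and palmitoleate, is at chr10:100347124-100364834 on the plus strand. It stood at 442, 432 and 428 CPM in siNC and at 196, 191 and 188 CPM in siTCF19. SCD5, the second human stearoyl-CoA desaturase, is at chr4:82629539-82798857 on the minus strand and stood at 28.0, 29.7 and 28.6 CPM in siNC and at 64.8, 68.5 and 62.2 CPM in siTCF19. Neither gene had overlapping groups. SCD fell 2.26-fold (95% interval 2.13 to 2.41, adjusted p = 3.98e-24) and SCD5 rose 2.26-fold (2.06 to 2.50, adjusted p = 5.9e-18). Per length, SCD was at 80.3 FPKM in siNC and 35.4 in siTCF19, and SCD5 at 6.64 and 15. SCD thus remained the more abundant of the pair, with an SCD to SCD5 ratio of 12.7, 11.6 and 12 in siNC and of 2.42, 2.23 and 2.42 in siTCF19. No exonic base of either gene is shared with another annotated gene.

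The FADS enzymes place double bonds in polyunsaturated chains, and FADS1 and FADS2 lie side by side on chromosome 11. FADS2 was at 306, 318 and 304 CPM in siNC and at 212, 201 and 211 CPM in siTCF19, a 1.49-fold fall (95% interval 1.4 to 1.59, adjusted p = 8.37e-14). FADS1 fell from 187 ± 1.37 to 142 ± 3.57 CPM (log2 fold change -0.40 ± 0.05, adjusted p = 5.81e-09). Neither gene had overlapping groups, and the 2 share 490 exonic bases on opposite strands. FADS3 had 23.4 CPM in siNC and 23.9 CPM in siTCF19, with a log2 fold change of 0.03 (-0.15 to 0.21, adjusted p = 0.835).

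**Figure D2:**
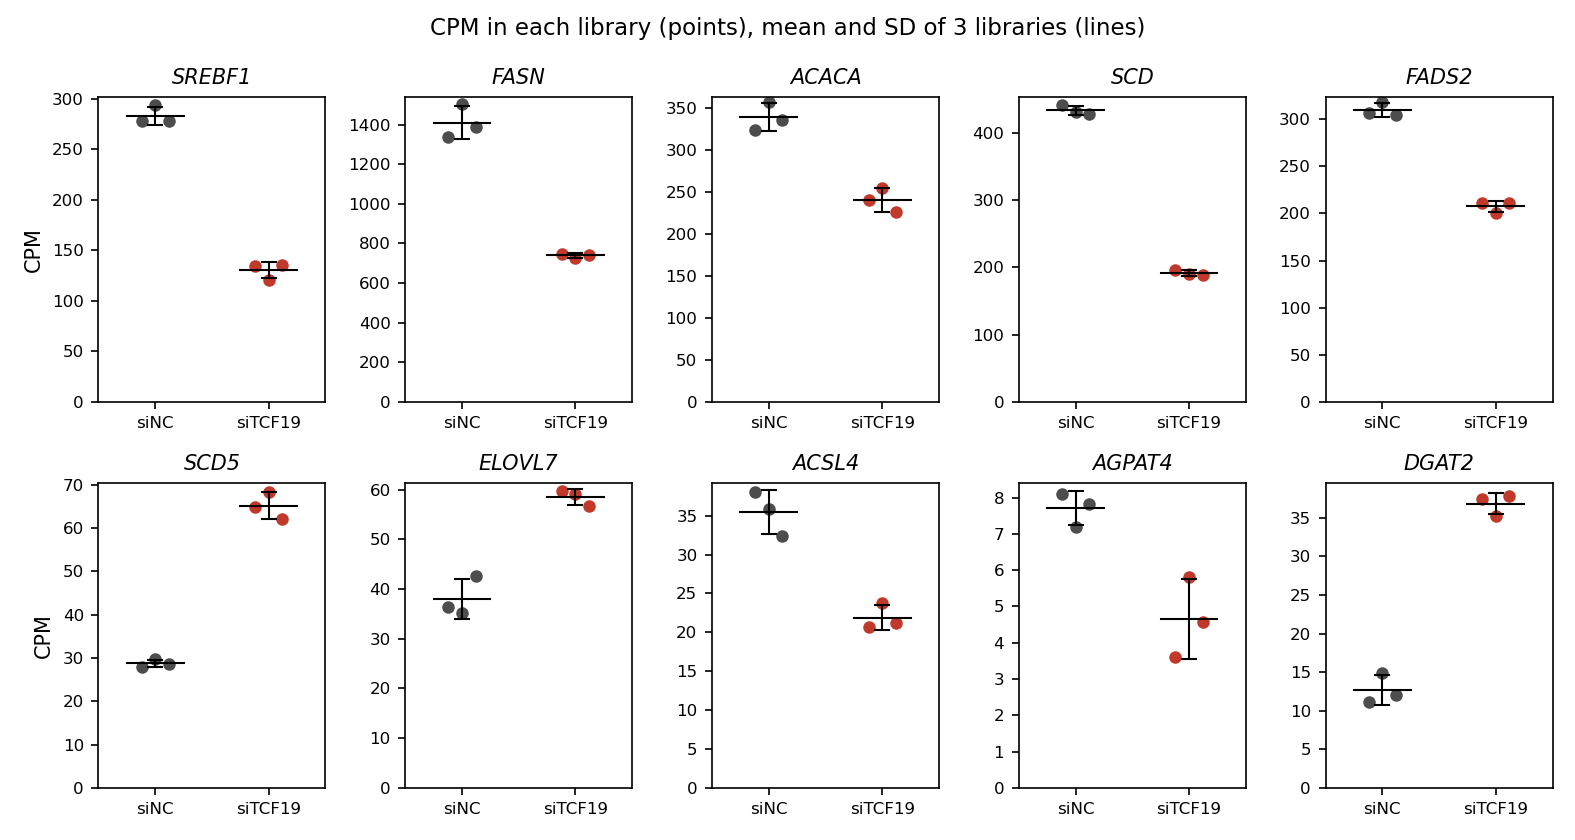
CPM (vertical axes, each from 0) in the 3 siNC and 3 siTCF19 libraries for the 10 genes that changed at least 1.4-fold and averaged 5 CPM or more in a group. Points are libraries and lines are the mean and SD. The groups do not overlap in any panel.

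Because SREBF1 and SCD fell together while SCD5 rose, the sequences around their start sites are shown, from 250 bases before to 50 bases after each start (RefSeq, GRCh38.p14). They were searched on both strands for a sterol regulatory element (TCACCCCAC), an E-box (CACGTG), an NF-Y box (CCAAT) and a GC box (GGGCGG), and capitals mark the matches. The first is SREBF1 at chr17:17836937-17837236 on the minus strand, the next SCD at chr10:100346983-100347282 on the plus strand, and the last SCD5 at chr4:82798747-82799046 on the minus strand.
SREBF1: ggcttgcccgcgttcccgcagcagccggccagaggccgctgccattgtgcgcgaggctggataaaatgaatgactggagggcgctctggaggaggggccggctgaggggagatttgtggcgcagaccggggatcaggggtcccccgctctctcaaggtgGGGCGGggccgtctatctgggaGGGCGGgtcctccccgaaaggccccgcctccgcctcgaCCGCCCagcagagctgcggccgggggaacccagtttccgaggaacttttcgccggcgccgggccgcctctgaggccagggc
SCD: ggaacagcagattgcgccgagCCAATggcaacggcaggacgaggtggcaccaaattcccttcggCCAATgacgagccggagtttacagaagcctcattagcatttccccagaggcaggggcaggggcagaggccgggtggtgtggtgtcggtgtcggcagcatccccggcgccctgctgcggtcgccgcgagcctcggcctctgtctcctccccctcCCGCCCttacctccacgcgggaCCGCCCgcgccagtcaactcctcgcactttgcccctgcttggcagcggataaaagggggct
SCD5: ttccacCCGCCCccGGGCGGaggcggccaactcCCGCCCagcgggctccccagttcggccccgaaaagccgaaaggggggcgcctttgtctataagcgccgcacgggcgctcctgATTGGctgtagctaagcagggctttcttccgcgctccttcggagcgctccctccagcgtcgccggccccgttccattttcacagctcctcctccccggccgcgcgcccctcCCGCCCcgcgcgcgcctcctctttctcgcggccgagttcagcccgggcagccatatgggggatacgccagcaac
The window of SCD holds 2 NF-Y boxes, 229 to 225 and 186 to 182 bases before the start, and 2 GC boxes. That of SCD5 holds 1 NF-Y box, in reverse, and 4 GC boxes, and that of SREBF1 holds 3 GC boxes and no NF-Y box. None of the 3 windows holds the sterol element or the E-box as spelled here. Each of these genes had only 1 window in the RefSeq set, so any other start was not searched. Counts per gene do not tell transcripts from different starts apart.

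Promoters of 34 members were found in the same RefSeq table, 57 windows in all since some genes have several starts. The 7 members without a window were FASN, OXSM, HSD17B12, AGPAT5, LPIN3, DGAT1 and DGAT2. Windows of all genes were not limited to genes expressed here, so they are not matched to the members in level. An NF-Y box was in 43.9% of these windows and in 34.6% of the 35116 windows of all genes, and a GC box in 71.9% and 45%. The E-box was in 5.26% of the members' windows, those of ELOVL4, ELOVL5 and LPIN2, and in 7.26% of all. The sterol element as spelled was in 1 window, that of ACSL1, 1.75% against 0.430% of all. Windows of members that fell held an NF-Y box in 48% and a GC box in 72%, and those of members that rose in 38.9% and 66.7%. The 12 windows of members that were not called held them in 50% and 91.7%, so neither box was most frequent in members that fell. Some windows of the same gene overlap, as for ACLY, MCAT and TECR, so their matches are counted more than once. A match of letters is a description and not a bound site.

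Of the 10 elongation genes, 3 rose and 3 fell, each by less than SCD and SCD5. ELOVL7, an elongase of saturated and monounsaturated very long chains, was at 36.3, 35.2 and 42.5 CPM in siNC and at 59.7, 59.1 and 56.7 CPM in siTCF19. It rose 1.54-fold without overlap (95% interval 1.39 to 1.70, adjusted p = 1.25e-09). ELOVL6, which extends palmitate to stearate, rose from 56.3 ± 1.22 to 67.6 ± 2.88 CPM (log2 fold change 0.27 ± 0.06, adjusted p = 0.000458). ELOVL4, an elongase of very long chains, rose from 14.2 to 17.4 CPM (adjusted p = 0.0291). That call was lost with DESeq2 (adjusted p = 0.0678) and without replicate 1 of siNC (0.169) or replicate 3 of siTCF19 (0.195).

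The elongation genes that fell were ELOVL5, ELOVL1 and HACD3. ELOVL5, which extends polyunsaturated chains, went from 156 ± 6.37 to 118 ± 7.27 CPM (log2 fold change -0.40 ± 0.05, adjusted p = 3.1e-08). ELOVL1, which extends saturated very long chains, went from 122 to 97.9 CPM, and HACD3, a hydroxyacyl-CoA dehydratase of the cycle, from 196 to 158 CPM. The ELOVL6 to ELOVL5 ratio in FPKM was 0.182, 0.199 and 0.186 in siNC and 0.307, 0.295 and 0.299 in siTCF19, higher in every siTCF19 library. The other enzymes of the elongation cycle did not pass the test. Log2 fold changes were 0.01 (-0.13 to 0.14) for the ketoacyl-CoA reductase HSD17B12, -0.06 (-0.16 to 0.04) for the dehydratase HACD2 and -0.03 (-0.16 to 0.10) for the enoyl-CoA reductase TECR. ELOVL2, a polyunsaturated chain elongase, had 15 to 27 counts per siNC library, 30 to 36 per siTCF19 library, and missed the threshold (log2 fold change 0.68 ± 0.31, adjusted p = 0.0729).

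All 3 tested acyl-CoA synthetases fell. ACSL4, which prefers arachidonate, was at 38.1, 35.9 and 32.4 CPM in siNC and at 20.7, 23.8 and 21.2 CPM in siTCF19. The groups were apart, and the fall was 1.62-fold (95% interval 1.44 to 1.82, adjusted p = 7.02e-09). ACSL1 fell from 155 ± 6.06 to 131 ± 2.24 CPM (adjusted p = 6.83e-05) and ACSL3, a form found on lipid droplets, from 130 ± 1.44 to 109 ± 3.12 CPM (adjusted p = 6.94e-05). ACSL5 had 11, 9 and 0 counts in siNC and 2, 4 and 3 in siTCF19, too few to be tested.

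Of 11 esterification genes 6 rose, and the largest rise of any member was that of DGAT2. DGAT2, one of the enzymes that complete triglyceride, is at chr11:75759512-75801535 on the plus strand. It had 162, 233 and 187 counts in siNC and 591, 528 and 586 in siTCF19, or 11.1, 14.8 and 12 CPM and 37.4, 35.3 and 37.8 CPM. Every siTCF19 library was more than 2-fold above every siNC library, and the rise of the mean was 2.90-fold (95% interval 2.54 to 3.32, log2 fold change 1.54 ± 0.10, adjusted p = 3.58e-17). DGAT1, an unrelated enzyme for the same reaction, had 88.0 ± 6.04 CPM in siNC and 89.8 ± 4.03 CPM in siTCF19 (log2 fold change 0.03, -0.09 to 0.15, adjusted p = 0.732). Per length DGAT1 was above DGAT2 in all 6 libraries, by a ratio of FPKM of 14, 12 and 14.3 in siNC and of 4.60, 4.65 and 4.75 in siTCF19. The size of that ratio depends on the annotated exon lengths, 4131 bases for DGAT1 and 7905 for DGAT2. In CPM, without length, DGAT1 was also above DGAT2, by a smaller ratio. DGAT2 shares 6.83% of its exonic bases with other annotated genes.

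The acylglycerolphosphate acyltransferases add the second acyl chain, making phosphatidic acid. AGPAT1 rose 1.37-fold from 44.3 ± 3.40 to 60.8 ± 2.70 CPM (adjusted p = 3.61e-07), but 30.2% of its exonic bases overlap other genes, mainly the readthrough gene PPT2-EGFL8 on the opposite strand, and the reads cannot be told apart without strand. AGPAT2 rose from 93.7 to 114 CPM (log2 fold change 0.29 ± 0.05, adjusted p = 2.21e-05) and AGPAT3 from 180 to 216 CPM (adjusted p = 2.31e-05). AGPAT4 went the other way, from 8.11, 7.19 and 7.83 CPM in siNC to 3.61, 5.81 and 4.58 CPM in siTCF19, without overlap. Its fall was 1.65-fold (95% interval 1.31 to 2.09, adjusted p = 0.000411). AGPAT5 had 94.7 ± 1.30 and 88.0 ± 1.41 CPM, which did not overlap, but did not pass the test (adjusted p = 0.114).

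The lipins remove phosphate to give diacylglycerol. LPIN2 rose from 144 ± 7.69 to 170 ± 1.72 CPM (log2 fold change 0.23 ± 0.05, adjusted p = 0.000172). LPIN1 rose from 74.1 ± 1.89 to 85.3 ± 7.27 CPM (adjusted p = 0.00602), a call that was lost without replicate 1 of siTCF19 (adjusted p = 0.115). For LPIN3 the log2 fold change was 0.19 (-0.01 to 0.39, adjusted p = 0.127). GPAM, the mitochondrial acyltransferase that adds the first chain, gave 0.04 (-0.10 to 0.18, adjusted p = 0.674). Neither LPIN3 nor GPAM passed the test.

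**Figure D3:**
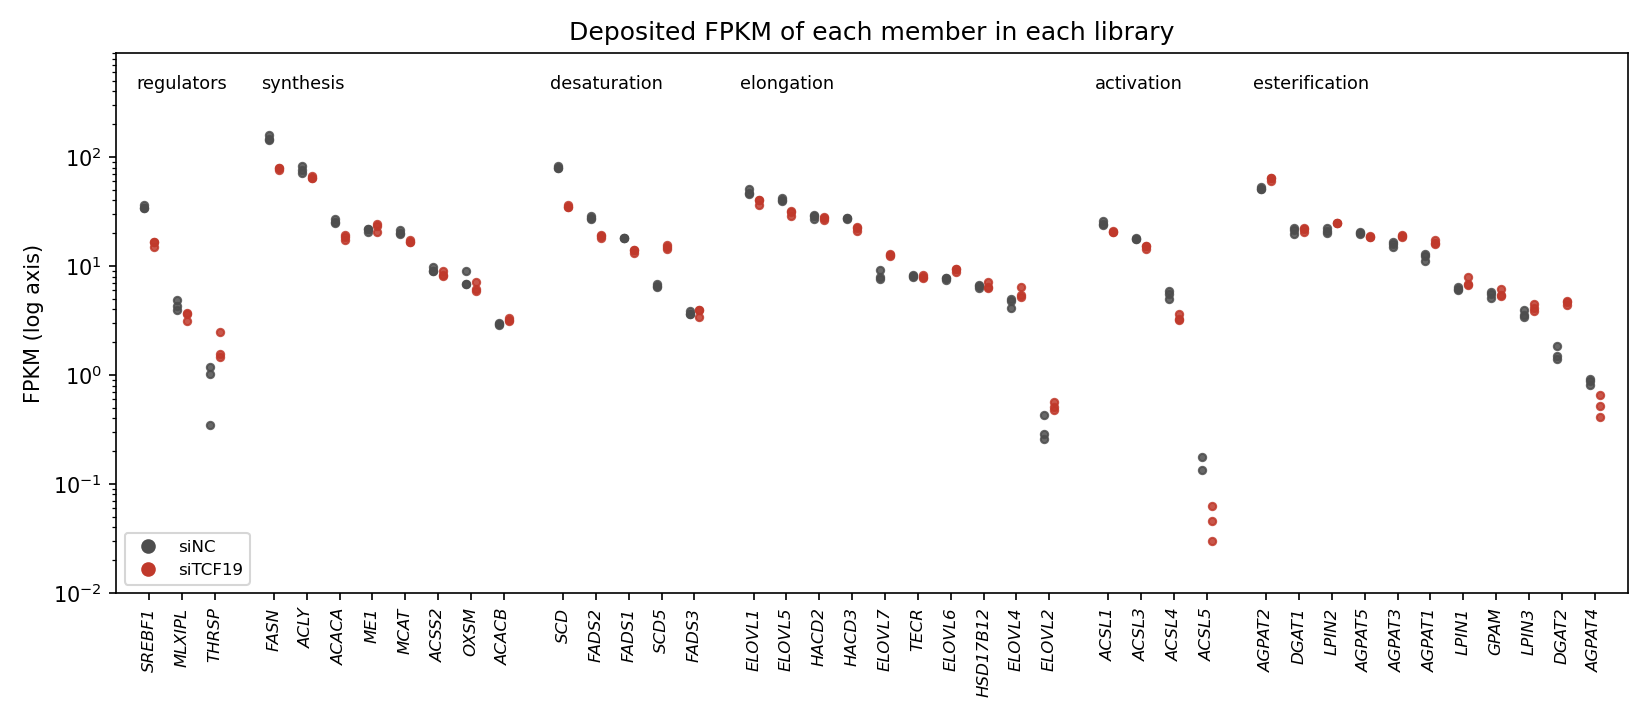
Deposited FPKM (vertical log axis) of every member in each library, ordered within each role by its siNC level. Grey points are siNC and red points siTCF19 libraries, and libraries listed at 0 are not drawn. FASN is the highest member and SCD, SCD5, DGAT2 and SREBF1 show the widest gaps between the groups among the well measured genes.

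Per length of all annotated exons, the members spanned a wide range, and their order depends on those lengths. In siNC the order from the top was FASN at 149 ± 9.08 FPKM, SCD at 80.3 ± 1.49, ACLY at 76.6 ± 4.99 and AGPAT2 at 51.7 ± 1.05 (SD, n = 3). The spreads of SCD and ACLY overlap. The lowest members were AGPAT4 at 0.871, THRSP at 0.853, ELOVL2 at 0.323 and ACSL5 at 0.104 FPKM. In siTCF19 the order at the top was FASN at 78.2, ACLY at 65.1, AGPAT2 at 62.9 and then ELOVL1 at 38.7 FPKM, followed by SCD at 35.4 FPKM. In that order the libraries of ACLY and AGPAT2 overlap, as do those of ELOVL1 and SCD.

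Summed FPKM shows what these changes came to for each role, as a description without a test. The weight of each gene in a sum depends on its annotated exon length. The 8 synthesis genes summed to 313 ± 14.8 FPKM in siNC and 219 ± 1.67 in siTCF19, a ratio of 0.701. The desaturases went from 137 ± 1.56 to 86.6 ± 1.61 (0.634) and the regulators from 40.2 ± 1.28 to 21.4 ± 1.15 (0.532). Those 3 sums are set largely by FASN, SCD and SREBF1. Elongation went from 180 ± 2.15 to 161 ± 0.367 (0.896) and activation from 47.9 ± 1.37 to 38.9 ± 0.548 (0.813). Esterification alone had a higher sum in siTCF19, 185 ± 4.09 against 160 ± 5.47 FPKM (1.16), and its share of the summed FPKM of all members was 18.2% in siNC and 26.0% in siTCF19. In each role the 3 siNC sums and the 3 siTCF19 sums did not overlap.

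**Figure D4:**
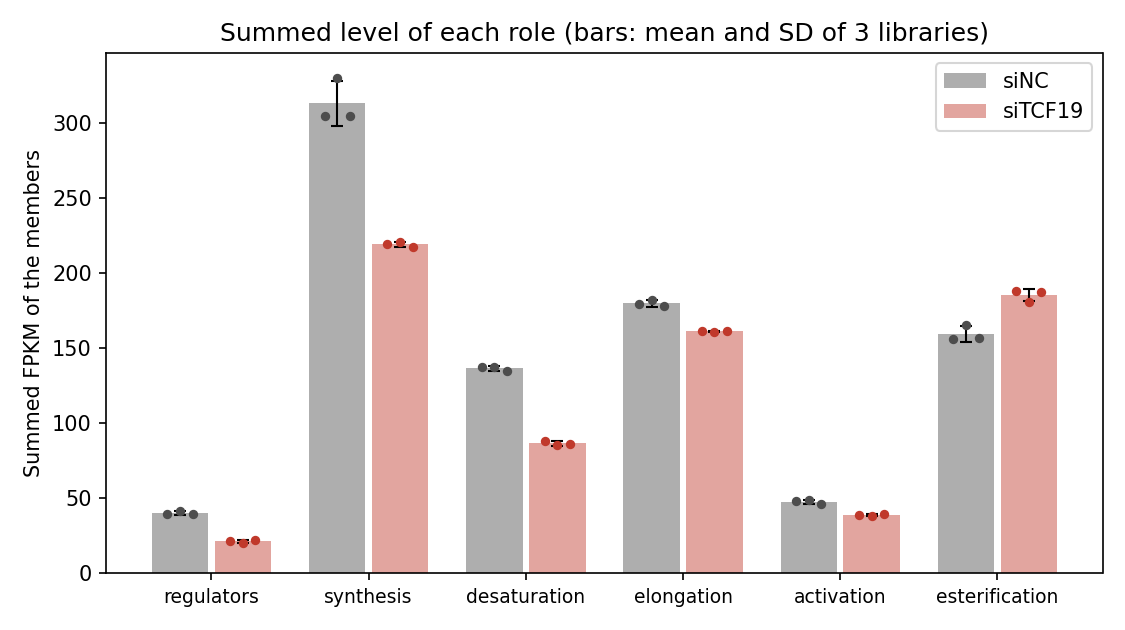
Summed FPKM of the members of each role (vertical axis from 0). Bars are the mean and SD of 3 libraries and points are libraries, siNC in grey and siTCF19 in red. Esterification is the role whose sum was higher in siTCF19, 185 against 160 FPKM.

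Genes that act beside the members were taken from 6 lists of related functions, whose counts stand beside 20.7% higher and 20.8% lower over all genes tested. Of 15 tested enzymes of the same steps outside the member list, 3 were higher (20%) and 6 lower (40%). LCLAT1, a lysolipid acyltransferase, fell from 39.3 ± 1.44 to 25.3 ± 2.57 CPM (adjusted p = 1.66e-08), and ACSBG1, a bubblegum-type acyl-CoA synthetase, from 5.95 to 2.47 CPM. ACSS1, the mitochondrial acetyl-CoA synthetase, rose from 9.74 ± 0.8 to 17.7 ± 0.717 CPM (adjusted p = 2.37e-08), and HACD4, a dehydratase, from 16.8 to 21.8 CPM. Of 14 tested genes that control SREBP and ChREBP, 6 were higher (42.9%) and 5 lower (35.7%), and 3 were higher without replicate 1 of siNC or of siTCF19. INSIG1, which holds the SREBP precursor in the endoplasmic reticulum and is itself an SREBP target, fell from 81.9 ± 0.854 to 61.7 ± 2.05 CPM (adjusted p = 1.79e-07). MID1IP1, a partner of acetyl-CoA carboxylase related to THRSP, fell from 111 to 76.5 CPM. MBTPS2, a protease that releases SREBP, rose from 83.1 to 109 CPM, and NR1H2, a liver X receptor, from 48.6 to 66.3 CPM. SREBF2, the paralog of SREBF1 that favours cholesterol genes, had 319 CPM in siNC and 276 CPM in siTCF19 (log2 fold change -0.21, adjusted p = 0.000336). It was added for its kinship to SREBF1 after its values were seen, and the difference between the 2 genes was not tested.

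Of 12 tested lipid droplet and lipolysis genes, 2 were higher (16.7%) and 3 lower (25%). FITM2, which helps droplets bud, rose from 22.6 ± 2.11 to 36.6 ± 0.904 CPM (adjusted p = 3.69e-09), and ABHD5, the activator of the triglyceride lipase, from 43.2 to 53.0 CPM. PNPLA3 fell from 15.6 to 8.51 CPM (adjusted p = 4.25e-07), and PLIN3, a droplet coat protein, from 66.9 to 58.4 CPM. The call of PLIN3 was lost on library size alone (adjusted p = 0.0723) and without replicate 2 of siNC (0.0790).

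Of 19 tested genes of fatty acid oxidation, 5 were higher and 5 lower, 26.3% each. The shares were 20.7% and 20.8% over all genes tested, and 25.7% and 27.1% of genes that averaged 5 CPM or more. The list itself was not limited to that level. CPT1A, the carnitine acyltransferase that malonyl-CoA inhibits, rose from 209 ± 4.25 to 308 ± 4.92 CPM (adjusted p = 1.53e-13), and ACADVL, the very long chain dehydrogenase, from 203 to 280 CPM. HADH, a hydroxyacyl-CoA dehydrogenase, fell from 125 to 92.5 CPM and ECHS1, an enoyl-CoA hydratase, from 267 to 221 CPM. Among 13 tested genes of fatty acid uptake and binding, 2 were higher (15.4%) and 5 lower (38.5%). VLDLR, a lipoprotein receptor, rose 2.13-fold from 18.7 ± 1.67 to 39.8 ± 1.97 CPM (adjusted p = 3.17e-14). The fatty acid binding protein FABP5 fell from 69.6 to 40.6 CPM, FABP6 from 15.4 to 9.22 CPM and the transporter SLC27A1 from 15.6 to 8.26 CPM. Of 18 tested genes of phospholipid synthesis, which draw on the same phosphatidic acid and diacylglycerol, 4 were higher and 4 lower, 22.2% each. That is near the shares over all genes and below those of genes that averaged 5 CPM or more. LPCAT1 fell from 546 to 413 CPM and PEMT from 55.9 to 38.5 CPM, while CDS1 rose from 24.2 to 38.0 CPM and ETNK2 from 1.68 to 5.31 CPM.

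**Figure D5:**
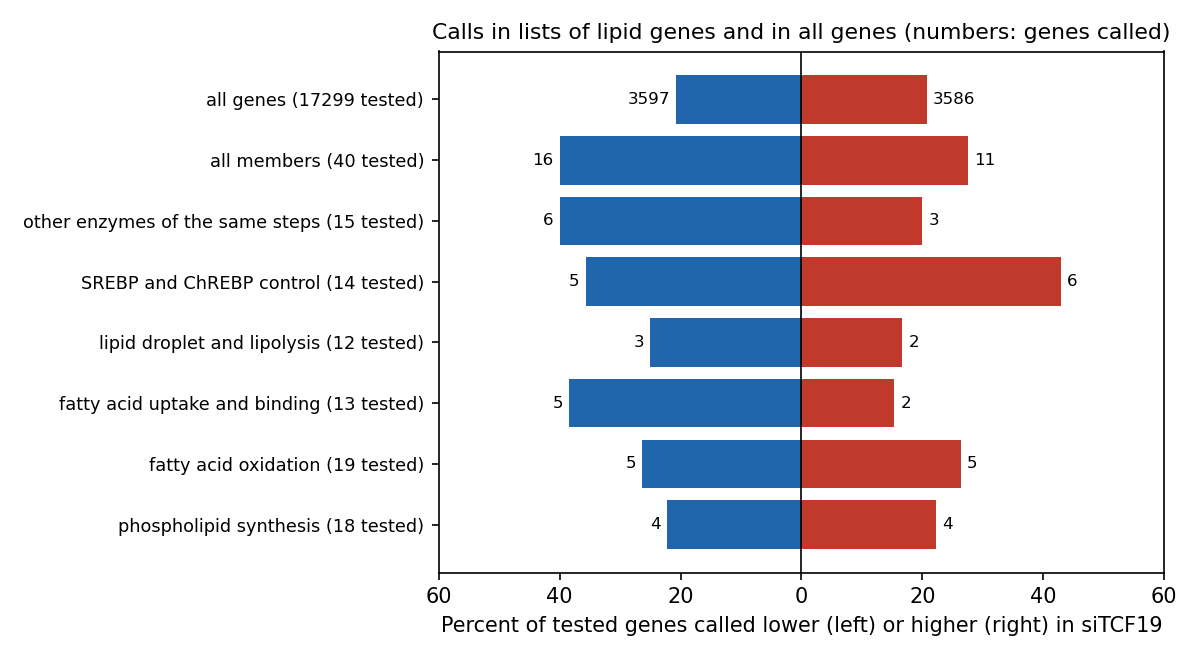
Percent of tested genes called lower (left, blue) or higher (right, red) in siTCF19 for all genes, the members and 6 lists of related genes, with the number called beside each bar. Members were called lower in 16 of 40 cases and higher in 11. Among genes that averaged 5 CPM or more, 26.3% of members and 25.7% of all genes were higher, and 42.1% and 27.1% were lower.

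The authors' deposited table, which gives its own comparison of the groups, lists 9 members higher and 16 lower at its adjusted p under 0.05. Its log2 fold changes differed from those given here by at most 0.012 over the tested members.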

How the data were processed

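The members and gene lists were chosen with earlier results of these data known. The submitters' processing notes name HISAT2 2.0.5, featureCounts 1.5.0-p3 and hg38; no source used here states the strand setting or the handling of multi-mapped reads. The authors deposited whole-number counts and FPKM per library, per the file headers. The deposited table also holds the authors' normalized mean signal per group, log2 fold change and p-value with its adjusted value, from a tool that no source used here names. Starts and ends of all 58735 genes equalled GENCODE 29.

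Counts were tested as deposited with edgeR 4.0.16 in R 4.3.3: filterByExpr (17299 genes kept), TMM scaling, glmQLFit and glmQLFTest, and Benjamini-Hochberg adjustment over all genes tested. The threshold for a call was an adjusted p under 0.05. CPM use TMM-scaled library sizes, intervals are 95% intervals from the fitted standard errors, and floors of 3 counts cover counting error only. FPKM were used as deposited. Named were TCF19, every member (with each library's value where it changed at least 1.4-fold and had a mean of at least 5 CPM), and in each list up to 4 called genes of lowest p at that level. SREBF2 and the marker genes of other cell types were named outside that rule. Ratios between members were picked with the values in view. Alternatives used DESeq2 1.42.0, limma 3.58.1, other scalings and filters, FPKM on a log2 scale with pseudocounts of 1 and 0.1, and each library left out. The fit was tested on simulated data. Windows around start sites came from RefSeq (GRCh38.p14), searched in Python 3.11.15, and figures used matplotlib 3.10.9.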

Additional observations from a re-analysis of the deposited data

How the results depend on the processing

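The 17 alternatives were 3 other scalings (RLE, upper quartile, library size alone), 2 other filters (none, or 1 CPM in 3 or more libraries), DESeq2, limma-voom, limma-trend on log2(FPKM + 1) and log2(FPKM + 0.1), a replicate block, an adjusted p under 0.01, and each of the 6 libraries left out. All genes called ran from 5459 (adjusted p under 0.01) to 7354 (library size alone). Members called higher ran from 8 (log2(FPKM + 0.1)) to 15 (library size alone), members called lower from 15 to 17, and TCF19 from -2.26 to -2.11 on the log2 scale. Of the 27 called members, 23 kept call and direction under all 17, and ELOVL4, LPIN1, MLXIPL and THRSP did not. Replicate numbers did not pair the libraries (correlation of same-numbered deviations -0.024 to 0.021), and with the replicate block 6874 genes, 11 members higher and 16 lower were called.

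Only members that were not called changed sign. On library size alone HACD2 was at 0.0042 and TECR at 0.031. With 1 library left out DGAT1 ran from -0.0232 to 0.0735, GPAM from -0.0249 to 0.0904, HSD17B12 from -0.0432 to 0.0510, TECR from -0.0509 to 0.0016 and FADS3 from -0.0060 to 0.10. On log2(FPKM + 1) AGPAT4 was at -0.30 and THRSP at 0.63. On library size alone synthesis genes called higher went from 0 to 2, phospholipid genes higher from 4 to 9 and other enzymes of the same steps lower from 6 to 3. SREBP and ChREBP control genes called higher went from 6 to 3 at an adjusted p under 0.01 and without replicate 1 of either group. The cause was not tested.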

Other observations

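PLIN2, the droplet coat protein found in most cells that store lipid, had 1, 0 and 4 counts in siNC and 3, 3 and 8 in siTCF19, too few to be tested. Its neighbours on chromosome 9 were well counted: HAUS6 had 963 to 1046 counts per siNC library and 899 to 976 per siTCF19 library, and DENND4C had 677 to 698 and 679 to 764. This gene was singled out after its values were seen, and no cause was tested.

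The 3' UTR words TGGTCAA and GGTCAAA had been singled out in an earlier analysis of these same libraries, so their counts are no independent evidence. Of the tested genes, 1694 carry either word in the 3' UTR, and 31.6% of them were lower and 21.7% higher. Of the 11468 without, 23.4% were lower and 24.3% higher. Among the members, 9 carry a word (ACACB, ELOVL4, ELOVL5, HACD3, SCD, FADS1, GPAM, AGPAT4 and DGAT1), of which 5 fell and 1 rose. Of the 30 members with neither word, 11 fell and 10 rose, SREBF1, FASN, SCD5 and DGAT2 among them.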
